A study of Mus musculus with 21 samples.

Results

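In mouse embryonic stem (ES) cells that overexpressed Fbxl19, 2420 sites of Fbxl19 lay well inside broad domains of ubiquitinated histone H2B, with neither Rnf20 nor the Fbxl19 of a weakly expressing clone at the same place. They were chosen from the 13669 Fbxl19 peaks of the strongly overexpressing clone (OE-high), of which they make up 17.7%. A peak was taken if it overlapped no Fbxl19 peak of the weakly expressing clone (OE-low) and no Rnf20 peak by 1 bp or more, which left 9526 peaks. Its midpoint also had to lie inside an H2Bub1 domain of the OE-high clone and more than 1000 bp from both ends of that domain. These interior Fbxl19-only peaks are described here across the H2Bub1 lists of 4 other conditions, which played no part in choosing them.

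Fbxl19 belongs to the F-box family and carries a CXXC zinc finger, which recognises CpG dinucleotides that lack methylation, as in CpG islands. Rnf20 is the E3 ligase that, with its partner Rnf40, attaches a single ubiquitin to histone H2B. The product, H2Bub1, is laid down along transcribed genes and is known to favour passage of RNA polymerase through nucleosomes and methylation of histone H3. From its title, the series concerns recruitment of Rnf20 to CpG islands by Fbxl19 and the H2Bub1 that follows, and the sites described here are those where Fbxl19 was listed in H2Bub1 chromatin without an Rnf20 peak.

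The samples were chromatin immunoprecipitations with sequencing (ChIP-seq) from J1, a mouse ES line that was grown with leukemia inhibitory factor. Of the 21 samples, 5 were streptavidin pulldowns, 12 were H2Bub1 antibody precipitates and 4 were input DNA. Tagged Fbxl19 was pulled down in 2 samples of the OE-high clone, which expressed it more than 5-fold above the endogenous level, and in 2 samples of the OE-low clone, which expressed it below that level and whose J1 cells contain BirA, a biotin ligase. Rnf20 was pulled down in 1 sample, also from J1 cells with BirA. H2Bub1 was profiled in 3 samples of OE-high ES cells, 2 of differentiated cells (day 4) with Fbxl19 knocked down, 2 of differentiated cells (day 4), 2 of ES cells with Fbxl19 knocked down and 3 of ES cells without a named change. Each overexpression group is a single clone, and the sources used here do not say how knockdown and differentiation were done.

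The files hold a single list of peaks or domains for each group other than input, combined over replicates where there were several, on the mm9 build, so there is no spread between replicates to set a difference against and no p-value. The intervals given are Clopper-Pearson exact intervals at 95%, which reflect counting error alone. Neighbouring peaks often share a domain, which the intervals do not take into account. The H2Bub1 lists differ in size, with 7216 domains over 246 Mb in OE-high, 1090 over 15.6 Mb in differentiated knockdown cells, 5125 over 156 Mb in differentiated cells, 1813 over 41.9 Mb in knockdown ES cells and 2937 over 57.4 Mb in ES cells. Depth per sample is unknown. The names of the combined H2Bub1 tracks carry the tags 46M for OE-high, 41M for differentiated knockdown, 36M for differentiated, 46M for knockdown ES and 60M for ES cells, per the file headers, which do not say what the tags count. The label of these sites rests on the absence of a listed Rnf20 or OE-low peak, which is a statement about 2 lists and not about absence of the protein.

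Interior Fbxl19-only peaks were common near the ends of OE-high domains and grew sparser with depth. Past the limit of 1000 bp, at 1 to 2 kb from the nearer end, there were 22.7 Fbxl19-only peaks per Mb of domain. The density was 16.3 per Mb at 2 to 5 kb, 10.3 at 5 to 10 kb, 8.65 at 10 to 20 kb and 7.46 at 20 to 50 kb. Beyond 50 kb it was 6.08 per Mb, from 117 peaks in 19.2 Mb. The outermost 1 kb, which the rule leaves out, held 108 Fbxl19-only peaks per Mb. Fbxl19 peaks with an OE-low or Rnf20 peak thinned out in the same order, with 13.7 per Mb at 1 to 2 kb and 2.81 per Mb beyond 50 kb. Position in this list was part of the choice of peaks, so these densities are a description without a test.

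**Figure D1:**
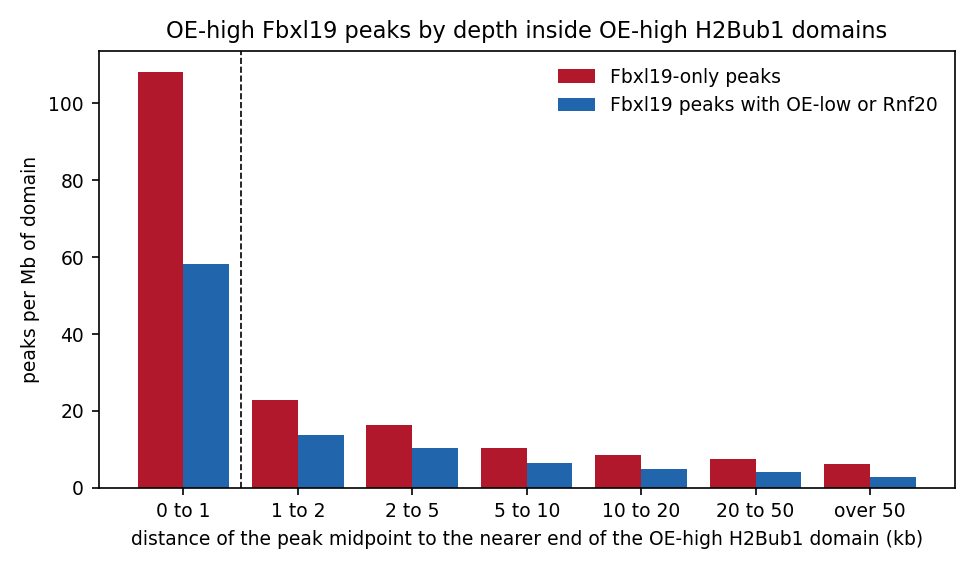
Peaks per Mb of OE-high H2Bub1 domain (vertical axis) in bins of distance from the peak midpoint to the nearer domain end in kb (horizontal axis), for Fbxl19-only peaks (red) and for Fbxl19 peaks with an OE-low or Rnf20 peak (blue). The dashed line marks the 1000-bp limit, and to its right the Fbxl19-only density goes from 22.7 to 6.08 per Mb.

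The median interior Fbxl19-only peak lay 8.27 kb from the nearer domain end (quartiles 3.22 and 19.1 kb), in an OE-high domain of 51.2 kb. The peaks fell in 1633 of the 7216 OE-high domains. A single such peak was found in 1180 domains, and 453 domains held 2 or more, which accounted for 1240 of the peaks (51.2%). Longer domains held one more often. At least 1 such peak was present in 51.1% of the 415 domains over 100 kb (interval 46.2 to 56.0) and in 10.8% of the 3412 domains of up to 20 kb (interval 9.82 to 11.9). Per Mb of interior the order was the opposite, with 7.63 peaks in domains over 100 kb and 16.2 in those of up to 20 kb.

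As Fbxl19 peaks they were close in length to the whole list and close in score to other Fbxl19-only peaks. Their median length was 635 bp (quartiles 424 and 929 bp), against 625 bp over all OE-high Fbxl19 peaks. The first score of the authors, which ranks peaks within this list, had a median of 10.1 (quartiles 8.64 and 12.0) in these peaks, against 12.2 in the 1441 interior peaks with an OE-low or Rnf20 peak and 10.7 over the whole list. Fbxl19-only peaks at domain ends had a median of 10.4 and those outside domains 10.2. Interior peaks with both OE-low and Rnf20 had a median of 14.7. Those with OE-low alone had 13.7 and those with Rnf20 alone 11.2, and the rule removed both kinds. Summits of the interior Fbxl19-only peaks were close to the peak middle, at a median of 73.5 bp.

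The interior Fbxl19-only peaks lay nearer to Rnf20 and OE-low peaks than other Fbxl19-only peaks did. The nearest Rnf20 peak was at a median of 40.7 kb (quartiles 10.5 and 130 kb), against 72.0 kb for Fbxl19-only peaks at domain ends, 79.2 kb for those outside domains and 35.1 kb over all OE-high Fbxl19 peaks. Of the interior peaks, 127 of 2420 (5.25%, interval 4.39 to 6.21) had one within 1000 bp. The nearest OE-low Fbxl19 peak was at a median of 91.7 kb, against 196 kb for the end peaks and 157 kb for those outside, and 40 interior peaks (1.65%) had one within 1000 bp. Other OE-high Fbxl19 peaks were nearer, at a median of 9.48 kb, and 403 peaks (16.7%, interval 15.2 to 18.2) had one within 1000 bp. An Rnf20 peak lay somewhere in the same OE-high domain for 1049 of the peaks (43.3%, interval 41.4 to 45.3), and an OE-low peak for 612 (25.3%). For 950 peaks (39.3%, interval 37.3 to 41.2) the domain also had an OE-high Fbxl19 peak within 1000 bp of an end. In 819 cases (33.8%, interval 32.0 to 35.8) the domain had none of these, so that interior Fbxl19-only peaks were the only binding listed in it. The shares within 1000 bp and within the same domain were not taken over other Fbxl19 peaks. Domains with an interior Fbxl19-only peak were also long, with a median of 42.2 kb against 21.6 kb over all OE-high domains. Nothing particular to these peaks is therefore read from those shares.

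The knockdown lists show which of these sites were in an H2Bub1 domain when Fbxl19 was knocked down. The peaks come from tagged Fbxl19, so presence of the endogenous protein at these sites was not measured, and a local need for it was not tested. In knockdown ES cells 499 of the 2420 peaks lay in an H2Bub1 domain (20.6%, interval 19.0 to 22.3), against 730 in ES cells (30.2%, interval 28.3 to 32.0). The same shares over all 13669 OE-high Fbxl19 peaks were 13.2% in knockdown ES cells and 19.1% in ES cells. In differentiated knockdown cells 189 of the interior Fbxl19-only peaks lay in a domain (7.81%, interval 6.77 to 8.95), against 1367 in differentiated cells (56.5%, interval 54.5 to 58.5). Over all OE-high Fbxl19 peaks these shares were 5.33% and 29.7%. The whole list includes 4638 Fbxl19-only peaks outside OE-high domains, so nothing is read from the higher shares of the interior peaks. With lists cut to the same number of domains, the order was reversed in the ES pair and kept in the differentiated pair. Such a cut also removes any difference between conditions in the number of domains, so it does not show what set the order. With each of these 4 lists limited to its top 1090 domains by score, the share was 7.81% in differentiated knockdown cells and 10.1% in differentiated cells, and 11.4% in knockdown ES cells against 8.64% in ES cells.

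**Figure D2:**
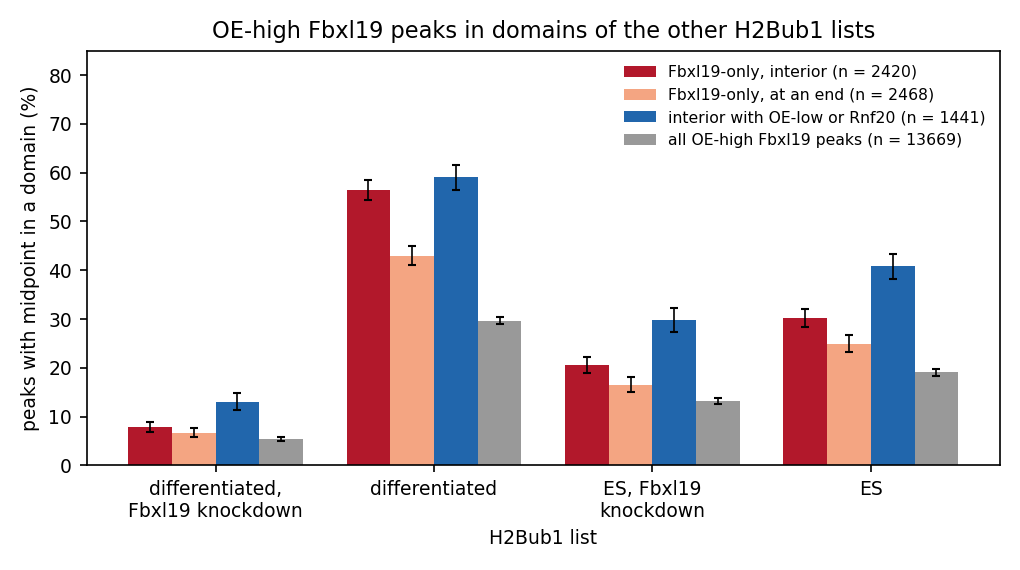
Percent of peaks with their midpoint in an H2Bub1 domain (vertical axis) for 4 lists (horizontal axis) and 4 sets of OE-high Fbxl19 peaks (colours); error bars are exact 95% intervals for counting error. Interior Fbxl19-only peaks (red) are at 7.81, 56.5, 20.6 and 30.2%, below the interior peaks with OE-low or Rnf20 (blue) in all 4 lists, although the intervals overlap for differentiated cells.

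Followed site by site, 56.3% of the interior Fbxl19-only peaks in ES domains were also in a domain after knockdown, and 13.1% of those in differentiated domains were. Of the 730 in an ES domain, 411 were also in a knockdown ES domain (56.3%, interval 52.6 to 59.9). The background over all OE-high Fbxl19 peaks in ES domains was 54.9%, so this share is near that of Fbxl19 peaks in general. It was 46.7% without chromosomes 1 and 11 and 49.3% with only the top 50% of OE-high Fbxl19 peaks by score. Of the 1367 in a differentiated domain, 179 were also in a differentiated knockdown domain (13.1%, interval 11.4 to 15.0), against a background of 15.4%, which lies just above that interval. With each of the 4 lists limited to its top 1090 domains, the share kept was 36.3% in differentiated cells (interval 30.3 to 42.7) and 68.9% in ES cells (interval 62.1 to 75.1). Conversely, 82.4% of the 499 peaks in knockdown ES domains were in an ES domain, and 94.7% of the 189 in differentiated knockdown domains were in a differentiated domain (interval 90.5 to 97.4). Over all OE-high Fbxl19 peaks these shares were 79.1% and 85.9%, the first of them within the interval of the interior peaks, 78.7 to 85.6.

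Sites that stayed in a domain after knockdown lay in higher-scoring and longer domains of the cells without knockdown. Among peaks in ES domains, the ES domain had a median score of 9.29 and a median length of 44.4 kb where the site was kept in the knockdown. Where it was not kept, these were 8.19 and 23.6 kb. Among peaks in differentiated domains, the differentiated domain had a median score of 13.6 and a length of 50.6 kb where the site was kept in the differentiated knockdown, against 9.39 and 34.4 kb where it was not. The Fbxl19 score of the peak itself differed less, at a median of 9.68 for sites kept in knockdown ES cells against 10.4 for those not kept. In differentiated cells it was 10.2 for sites kept in the knockdown against 10.1 for those not kept. The interior Fbxl19-only peaks were also divided into 4 classes at the quartiles of their Fbxl19 score. The share of ES-domain sites kept in the knockdown was 62.0% in the lowest class (interval 54.7 to 68.9) and 62.4% in the second. It was 53.1% in the third and 47.7% in the highest (interval 40.6 to 54.9). Fbxl19-only peaks at domain ends had 51.0, 50.4, 51.9 and 49.8% in the same classes.

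Differentiation asks whether these sites acquire H2Bub1 when ES cells exit pluripotency. Of the 730 interior Fbxl19-only peaks in ES domains, 554 were also in a differentiated domain (75.9%, interval 72.6 to 79.0), against a background of 66.4% over all OE-high Fbxl19 peaks in ES domains. For interior peaks with OE-low or Rnf20 the share was 71.4%, and the interval of the difference, -0.419 to 9.37, included 0. It was 75.7% with Rnf20 alone, 67.3% with OE-low alone, 64.1% with both and 67.0% for Fbxl19-only peaks at domain ends. A further 813 interior Fbxl19-only peaks were in a differentiated domain and in no ES domain. Of the 1367 in a differentiated domain, 40.5% were in an ES domain (interval 37.9 to 43.2), near the 42.7% over all OE-high Fbxl19 peaks in differentiated domains. Fbxl19 itself was mapped in undifferentiated cells, so its presence at these sites after differentiation was not measured.

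Combining the 4 lists, most of these sites were in a domain of OE-high cells alone or of OE-high and differentiated cells. In none of the other 4 lists were 840 peaks found (34.7%, interval 32.8 to 36.6), against 62.1% over all OE-high Fbxl19 peaks. That whole list includes the 4638 Fbxl19-only peaks outside OE-high domains, for which the share was 94.2%. Another 730 interior Fbxl19-only peaks were found in differentiated cells and in no other list (30.2%, interval 28.3 to 32.0), against 23.4% of the Fbxl19-only peaks at domain ends and 25.3% of interior peaks with OE-low or Rnf20. Of the 2468 end peaks, only 1544 had their midpoint in an OE-high domain. Of these, 58.7% were in a differentiated domain, against 56.5% of the interior Fbxl19-only peaks. The shares of end peaks for each combination are over all 2468, so nothing is read from their differences to the interior peaks. All 4 lists held 102 of the peaks (4.21%, interval 3.45 to 5.09), against 3.08% of the end peaks and 7.22% of interior peaks with OE-low or Rnf20. A set of 218 (9.01%) was in every list but that of differentiated knockdown cells, against 6.12% of end peaks and 11.7% of interior peaks with OE-low or Rnf20. In differentiated and ES cells and in neither knockdown there were 194 (8.02%, against 6.69% and 8.12% of the same 2 sets). In ES cells and in no other list there were 83 (3.43%, against 4.50% and 5.00%). In knockdown ES cells and in no other list there were 33 (1.36%, against 2.31% and 1.53%). In none of these 4 lists were 46.1% of the Fbxl19-only peaks at domain ends, some of which were in no OE-high domain either. Among interior peaks with OE-low or Rnf20 that share was 27.1%.

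**Figure D3:**
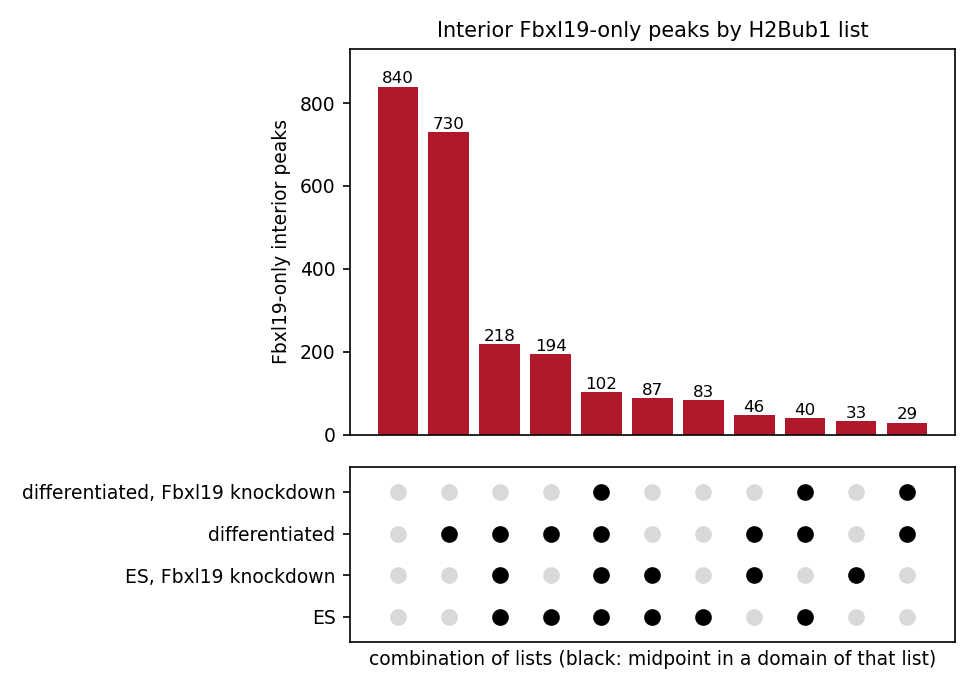
Number of interior Fbxl19-only peaks (bars) in each combination of the other 4 H2Bub1 lists that holds at least 20 of them; black dots mark the lists in which the peak midpoint lay in a domain. The bars for no other list (840) and for differentiated cells alone (730) are the tallest.

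At 57.8% of these sites the OE-high domain had no counterpart in the shorter ES list, a share between those of the 2 nearest sets. For 1398 of the 2420 peaks (57.8%, interval 55.8 to 59.7) the OE-high domain overlapped no ES domain at all, and the nearest ES domain end was at a median of 204 kb. The share was 64.1% for the 1544 end peaks with their midpoint inside and 47.5% for interior peaks with OE-low or Rnf20. Of all OE-high domains, 34.8% overlapped an ES domain. For 292 (12.1%, interval 10.8 to 13.4) the OE-high domain overlapped an ES domain that did not reach the peak, at a median of 13.3 kb. That share was 11.7% for interior peaks with OE-low or Rnf20 and 5.76% for the end peaks with their midpoint inside. Relative to differentiated cells, 588 peaks (24.3%, interval 22.6 to 26.1) lay in an OE-high domain without any differentiated counterpart. The same 2 sets had 22.5% and 28.0%, so this share is near that of interior peaks with OE-low or Rnf20. Where a peak was in an ES domain, its OE-high domain was longer in 463 of 730 cases (63.4%, interval 59.8 to 66.9), with a median ratio of 1.15. Against differentiated domains it was longer in 969 of 1367 cases (70.9%, interval 68.4 to 73.3), with a median ratio of 1.10. Only the OE-high domain had to reach more than 1000 bp to both sides of a peak, so these lengths are a description without a test.

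Within the interior of OE-high domains, these peaks were denser where ES cells had an H2Bub1 domain. ES domains covered 19.3% of the 231 Mb of interior, and the peaks numbered 16.4 per Mb there and 9.04 per Mb in the rest, a ratio of 1.81. The ratio was 1.49 for knockdown ES domains, which covered 14.8%, and 1.33 for differentiated knockdown domains, which covered 5.97%. Differentiated domains covered 58.3% of the interior and held 10.1 peaks per Mb, against 10.9 outside them, a ratio of 0.928. The high share of interior Fbxl19-only peaks in differentiated domains was close to the share of interior that these domains cover. Interior peaks with OE-low or Rnf20 had larger ratios, 2.89 for ES, 2.44 for knockdown ES and 2.35 for differentiated knockdown domains, and 1.03 for differentiated domains.

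Interior Fbxl19 peaks that overlapped an Rnf20 peak but no OE-low peak were more often in domains of the other lists. For those with OE-low alone the intervals of the difference included 0. For those with both OE-low and Rnf20 the interval included 0 in differentiated cells only. Taken as one set, the interior peaks with a partner, an overlapping OE-low or Rnf20 peak, numbered 1441. Interior Fbxl19-only peaks were in an ES domain in 30.2% of cases and those with a partner in 40.8%, a difference of -10.6 percentage points (interval -13.8 to -7.47). In knockdown ES cells the shares were 20.6% and 29.8% (difference -9.15, interval -12.1 to -6.27), and in differentiated knockdown cells 7.81% and 13.0% (difference -5.17, interval -7.28 to -3.13). In differentiated cells they were 56.5% and 59.1%, and the interval of the difference, -5.88 to 0.626, included 0. Interior peaks with OE-low but without Rnf20 were in an ES domain in 34.9% of cases (interval 29.3 to 40.8), those with Rnf20 but without OE-low in 39.6% (interval 36.3 to 42.9), and those with both in 50.2% (interval 44.3 to 56.1). Against partners with OE-low but without Rnf20, the interval of the difference included 0 in all 4 lists, and the interior Fbxl19-only peaks had the higher share in differentiated knockdown (7.81% against 6.05%) and in differentiated cells (56.5% against 50.2%). Against those with Rnf20 but without OE-low, the interval excluded 0 in all 4 lists, with a difference of -6.54 in differentiated knockdown, -5.62 in differentiated (interval -9.43 to -1.76), -7.85 in knockdown ES and -9.44 in ES cells. Against those with both, the difference was -2.34 in differentiated cells (interval -8.41 to 3.90), and the interval excluded 0 in the other lists. Of the ES-domain sites, 56.3% of interior Fbxl19-only peaks and 62.2% of those with a partner were kept in the knockdown (difference -5.94, interval -11.3 to -0.496). With OE-low alone or Rnf20 alone as the partner, the interval of that difference included 0. With both as partners the difference was -12.0 (interval -20.3 to -2.97). Of the differentiated-domain sites, 13.1% of Fbxl19-only peaks and 19.6% of those with a partner were kept (difference -6.51, interval -9.83 to -3.27), against 10.6% of those with OE-low alone and 20.9% of those with Rnf20 alone.

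Score of the OE-high domain went with these shares more than Fbxl19 score did. The interior Fbxl19-only peaks were divided into 4 classes at OE-high domain scores of 9.69, 12.1 and 15.6. The share in an ES domain was 10.9% in the lowest class, 17.9% in the second, 34.2% in the third and 57.5% in the highest (interval 53.5 to 61.5). Interior peaks with a partner had 18.1, 24.1, 38.7 and 65.9% in the same classes, above the Fbxl19-only peaks in each of the 4, with intervals that stood apart in the lowest class only. The share of ES-domain sites kept in the knockdown was 36.4, 44.4, 48.8 and 68.1% in the Fbxl19-only peaks and 40.4, 43.8, 54.0 and 73.5% in those with a partner. The part of domain score in the difference between the 2 sets was not tested beyond these classes.

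**Figure D4:**
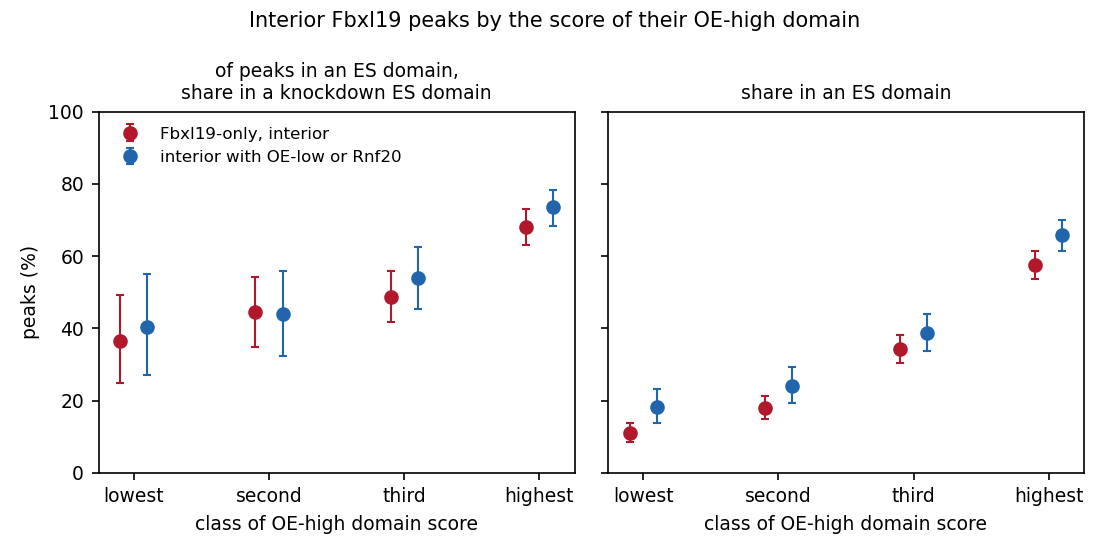
Percent of interior peaks (vertical axis) by class of OE-high domain score (horizontal axis, lowest to highest), for Fbxl19-only peaks (red) and peaks with OE-low or Rnf20 (blue), with exact 95% intervals. The left panel gives peaks kept in a knockdown ES domain among those in an ES domain, and the right panel peaks in an ES domain, where the red points go from 10.9% to 57.5%.

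By class of Fbxl19 score the share of interior Fbxl19-only peaks in an ES domain stayed between 26.4% (interval 23.0 to 30.2) and 32.8% (interval 29.0 to 36.7). It also varied little with OE-high domain length, at 27.7% for domains of up to 20 kb (interval 23.4 to 32.2), 30.0% for 20 to 50 kb, 31.4% for 50 to 100 kb and 30.6% above 100 kb (interval 26.4 to 35.1). Having an Rnf20 peak elsewhere in the same domain went with a small difference, 32.0% (interval 29.2 to 34.9) against 28.7% (interval 26.4 to 31.2) for peaks in domains without Rnf20. An OE-low peak elsewhere in the domain went with fewer peaks in differentiated domains, 50.8% (interval 46.8 to 54.8) against 58.4% (interval 56.1 to 60.7) without. In differentiated knockdown domains the shares were 4.74% and 8.85%. The order was the opposite in the ES lists, with 22.2% against 20.1% in knockdown ES and 34.0% against 28.9% in ES domains. Domains with an OE-low peak were also longer, with a median of 67.4 kb against 46.6 kb, and the part of length in this was not tested.

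Set against the 2468 Fbxl19-only peaks within 1000 bp of an OE-high domain end, interior peaks were less often near a domain end of the other lists. The 2 sets were split by distance to OE-high domain ends. Where another list has ends at the same places, such a difference follows from the split, so it is given as a description. Interior peaks lay within 1000 bp of a differentiated domain end in 12.7% of cases, against 64.0% of the end peaks (difference -51.3 percentage points, interval -53.6 to -48.9). For ES domain ends the shares were 8.88% and 25.7% (difference -16.8, interval -18.9 to -14.7), and over all OE-high Fbxl19 peaks 23% for differentiated and 11.6% for ES ends. Ends of differentiated knockdown domains were within 1000 bp of 6.12% of interior and 10.2% of end peaks, against 5.91% of all OE-high Fbxl19 peaks. Ends of knockdown ES domains were near 5.62% of interior and 15.2% of end peaks, against 7.26% of all. Most interior peaks were clear of the domains in 3 of the 4 lists, with 89.9% more than 1000 bp outside differentiated knockdown, 78.1% outside knockdown ES and 67.8% outside ES domains, against 38.0% for differentiated domains. More than 1000 bp inside a domain were 4.01% in differentiated knockdown, 49.3% in differentiated, 16.3% in knockdown ES and 23.3% in ES cells. Over all OE-high Fbxl19 peaks these inside shares were 1.61, 15.7, 7.57 and 10.1%. Of the 245 interior peaks in or near a differentiated knockdown domain, 148 (60.4%, interval 54.0 to 66.6) were within 1000 bp of its end. That share was 78.6% over all OE-high Fbxl19 peaks in or near such a domain, 66.4% for interior peaks with a partner and 96.6% for end peaks. The share in an ES domain was 30.2% for interior and 24.96% for end peaks (difference 5.21, interval 2.67 to 7.73). This difference rests on the end peaks whose midpoint falls just outside the OE-high domain. Against the 1544 end peaks with their midpoint inside, also at 30.2%, it was -0.0161 (interval -3.00 to 2.94). Of the ES-domain sites, 56.3% of interior and 50.6% of end peaks were kept in the knockdown (difference 5.65, interval 0.199 to 11.1). Of the differentiated-domain sites, 13.1% of interior and 13.3% of end peaks were kept (interval of the difference -3.00 to 2.56).

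Chromosomes differed. Among autosomes, interior Fbxl19-only peaks made up between 11.4% of the OE-high Fbxl19 peaks on chromosome 8 and 24.1% on chromosome 12, and chromosome X had 2. On autosomes the share in an ES domain was highest on chromosome 1, at 58.3% of 247 peaks, and lowest on chromosome 8, at 12.0% of 83, around a median of 25.2%. Of the ES-domain sites on chromosomes 1 and 11, 76.4% of 237 were kept in the knockdown (interval 70.4 to 81.6). On chromosomes 4, 9 and 14 it was 35.7% of 143 (interval 27.8 to 44.1), and on the others 51.1% of 350 (interval 45.8 to 56.5), sets of chromosomes chosen after values of these lists had been seen. By single autosome the share ran from 18.8% to 78.5%, around a median of 52.9%. The sets do not follow that order, as chromosomes 5 (36.8%) and 12 (38.3%), among the others, were below chromosome 4 (41.8%). End peaks on the same sets were kept in 66.7, 34.5 and 47.6% of cases. Interior peaks with a partner were kept in 82.9, 54.5 and 58.2%, with overlapping intervals for chromosomes 4, 9 and 14 and for the others. Without chromosomes 1 and 11 the share of interior Fbxl19-only peaks in an ES domain was 25.4%, and the share of ES-domain sites kept in the knockdown 46.7% (interval 42.2 to 51.2). Chromosome copy number in these clones was not analysed here.

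The OE-high domain with the most interior Fbxl19-only peaks, 12, lay on chromosome 1 at 137370000 to 137586799, a length of 217 kb with a domain score of 8.73. The first scores of its 12 peaks ran from 6.58 to 19.2, with a median of 10.2, the highest at 137460384 to 137461006. Its other 3 Fbxl19 peaks overlapped an OE-low peak in 2 cases and an Rnf20 peak in 1. No differentiated knockdown, knockdown ES or ES domain reached into it, and a differentiated domain covered 35.8 kb of it and held 1 of the 12 peaks. A domain on chromosome 15 at 76443600 to 76648599 held 10 of the peaks, of which 6 lay in differentiated domains and none in the other 3 lists. On chromosome 11 a shorter domain of 76 kb, at 98759400 to 98835399, held 9, with none in a domain of any other list, although 2 differentiated domains and an ES domain covered parts of it.

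**Figure D5:**
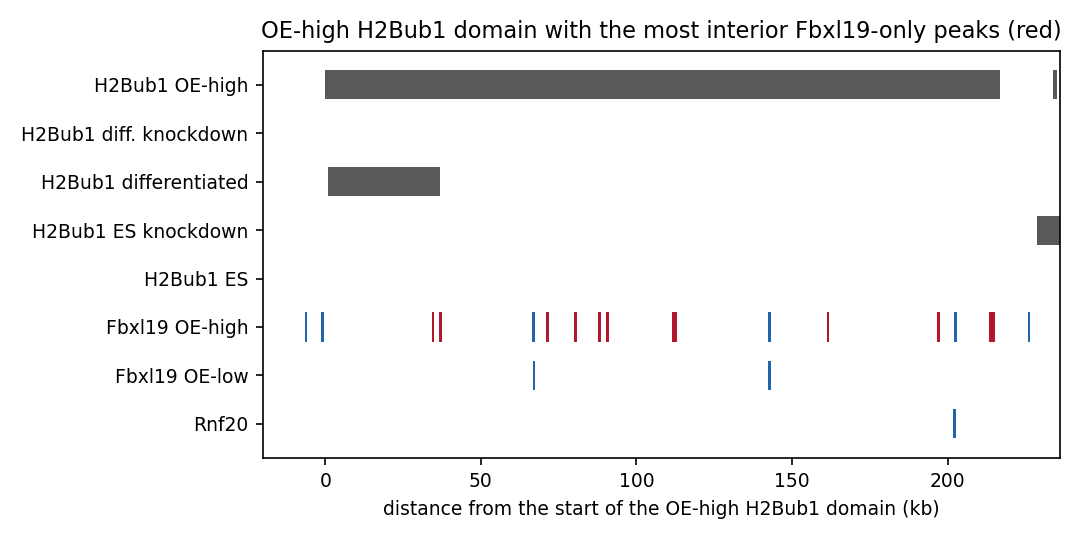
Map of the OE-high H2Bub1 domain with 12 interior Fbxl19-only peaks: horizontal axis, distance from the domain start in kb; rows, H2Bub1 domains of 5 lists (grey) and peaks of Fbxl19 and Rnf20. Red marks the interior Fbxl19-only peaks and blue other peaks, widened where needed to stay visible; the differentiated domain covers 35.8 kb, and no ES domain is drawn.

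The interior Fbxl19-only peak with the highest first score (35.4) was on chromosome 14 at 55221532 to 55222625, 14.9 kb from the end of an OE-high domain of 51.8 kb, and in no domain of the other lists. Next was chromosome 12 at 103942704 to 103944393 (score 35.4), 152 kb deep in a domain of 325 kb, with an OE-low peak 649 bp away. It lay in a knockdown ES and an ES domain and 349.5 bp outside a differentiated domain. The third, on chromosome 1 at 75475161 to 75476385 (score 30.9), and the fifth, on chromosome 1 at 158868750 to 158870308 (score 29.9), were in differentiated and ES domains and in neither knockdown. The fourth, on chromosome 14 at 119096073 to 119096576 (score 30.8), was in an ES domain of score 8.96 and in no other list, and its nearest Rnf20 peak was 405 kb away. None of these 5 was in a differentiated knockdown domain.

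Deepest in a domain was a peak on chromosome 12 at 100630058 to 100632255 (score 17.5), 171 kb from the nearer end of an OE-high domain of 374 kb and 42.5 bp inside a differentiated domain. It was followed by chromosome 3 at 88717520 to 88718359 (score 10.1), 165 kb deep and in no other list. Next was chromosome 12 at 103963868 to 103964577 (score 8.56), 152 kb deep in the same domain as the second-ranked peak above. That site was in a knockdown ES domain and 2.82 kb outside the nearest ES domain.

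Leading peaks of the remaining combinations show how the sites differ. In all 4 lists was chromosome 1, 84834843 to 84837280 (score 18.7), whose domain scores were 9.14 in differentiated knockdown, 13.5 in differentiated, 8.94 in knockdown ES and 8.69 in ES cells. In all but differentiated knockdown cells was chromosome 17, 79335965 to 79336687 (score 28.8), 73 bp inside the end of both its differentiated and its ES domain. In all but knockdown ES cells was chromosome 11, 72421037 to 72422316 (score 29.4). In differentiated cells alone was chromosome 15, 84659882 to 84660235 (score 20.7), and in both differentiated lists alone chromosome 2, 32029621 to 32030900 (score 18.1). In knockdown ES cells alone was chromosome 16, 46496943 to 46497928 (score 15.9), which lay 237 bp outside both a differentiated and an ES domain. In knockdown ES and differentiated cells was chromosome 14, 51550079 to 51551580 (score 21.7), 231 bp outside an ES domain.

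At the 1000-bp limit the peaks formed a continuum, with 62 interior Fbxl19-only peaks between 1000 and 1200 bp from a domain end and 60 Fbxl19-only peaks between 800 and 1000 bp. Just inside were chromosome 14, 6169761 to 6170232 (1002.5 bp, score 4.06), chromosome 17, 45681036 to 45681375 (1005.5 bp, score 10.3), and chromosome 13, 70776276 to 70777310 (1006 bp, score 8.22). Just outside were chromosome 14, 55482274 to 55483327 (998.5 bp, score 13.6), chromosome 1, 183958778 to 183959237 (991.5 bp, score 8.84), and chromosome 12, 86560068 to 86561103 (985.5 bp, score 10.6).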

How the data were processed

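BWA 0.5.9-r16, MACS and mm9 are listed without their roles, per the submitters' processing notes. The H2Bub1 lists are combined domain lists whose track lines end in BCP, per the file headers. Each was deposited with domain length and a domain score. That score is above 7, with formula not given in the sources used here. The Fbxl19 lists were deposited with 2 scores and a summit per peak, and the Rnf20 list with a score and names that begin with MACS. Scores are the authors' and rank peaks within a list. Lists were matched to groups by name and sample titles. Positions are on mm9, counted from 1, with the Fbxl19 lists read as counted from 1 and the others from 0. A peak was in a domain if its midpoint was. Differences of shares carry intervals that add the 2 exact intervals in squares. Named regions are the 5 highest by score, the 3 deepest, the 3 fullest domains, the leading peak of each combination with at least 20 peaks, and the 3 on either side of the limit. Chromosome 18, mitochondrial and unplaced sequence were left out of naming. The peaks, classes and lists were chosen with earlier results of these data known. Neither sequence nor gene annotation of mm9 was used, so peaks were not assigned to genes. Python 3.11.15, NumPy 2.4.6, pandas 2.3.3, SciPy 1.17.1 and matplotlib 3.10.9 were used. The overlap code, tested on simulated data, classed all simulated peaks as a brute-force search did.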

Additional observations from a re-analysis of the deposited data

How the results depend on the processing

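Of 128 values under 14 alternative settings, 94 stayed within the main interval or, for numbers of peaks, within 1.5 times. Margins of 500 and 2000 bp, excluding peaks with OE-low or Rnf20 within 1000 bp, the listed summit, domains of at least 2 kb and autosomes only changed none. A margin of 5000 bp left 1529 peaks, with 6.15% within 1000 bp of an ES domain end. The top 50% of OE-high Fbxl19 peaks left 987, with 17.8% in knockdown ES domains and 49.3% of ES-domain sites kept in the knockdown. The top 50% of each H2Bub1 list left 1333, with 41.4% in differentiated, 14.9% in knockdown ES and 17.8% in ES domains, 6.90% within 1000 bp of an ES end and 62.0% of ES-domain sites kept. The ES-domain difference was then -0.104 percentage points to end peaks and -14.8 to interior peaks with a partner. With the other H2Bub1 lists limited to the size of the shortest, 10.1% were in differentiated, 11.4% in knockdown ES and 8.64% in ES domains, 3.93% within 1000 bp of an ES end, 68.9% of ES-domain and 36.3% of differentiated-domain sites were kept, and the difference to end peaks was -0.0751. Without chromosomes 1 and 8, 16.8% were in knockdown ES and 27.6% in ES domains, and 50.9% of ES-domain sites were kept. The other settings were added after seeing the data. Without chromosomes 1 and 11, 6.23% were in differentiated knockdown, 14.7% in knockdown ES and 25.4% in ES domains, 7.68% within 1000 bp of an ES end, 46.7% of ES-domain and 10.6% of differentiated-domain sites were kept. With 1 bp of the peak in place of its midpoint, 9.63% were in differentiated knockdown and 60.7% in differentiated domains, 15.3% of differentiated-domain sites were kept, and the difference to end peaks was 2.03. With only end peaks whose midpoint is inside, it was -0.0161. The cause was not tested, except that fewer or shorter lists hold fewer peaks by construction. No paired analysis was possible because the lists combine replicates, and for the same reason no replicate could be left out.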
